A study of Oryctolagus cuniculus with 34 samples.

Results

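Cell cycle and DNA replication genes were followed in the supraspinatus muscle of rabbits after repair of a torn rotator cuff tendon. The members were the genes whose human ortholog symbol belongs to families named for the cell cycle: cyclins (CCN), cyclin-dependent kinases and their inhibitors (CDK, CDKN), CDC genes, centromere proteins (CENP), kinesins (KIF), replication factors (MCM, ORC, POLD, RFC), condensins (NCAP), topoisomerase II (TOP2), anaphase-promoting complex subunits (ANAPC), and the kinases of the PLK and NEK families. The search found 40 genes, and all 40 passed the filter on low values (CPM, a library's counts scaled to the same total, over 1 in some library). They stand among 12937 genes tested and 23669 genes in the count table. A symbol could be read for 3310 genes only, so the 40 are the members with a symbol at hand and not the full cell cycle of the rabbit. The symbols of 26 members came from a table in order of gene identifier. Those of the other 14 came only from a table of gene groups built by the authors from co-expression across these repair libraries, of which 1999 rows could be read and 1905 belonged to a single group. The choice of those 14, among them CCND2, CCNG2, KIF3A, KIF5C, NEK7 and NEK10, was therefore not independent of how genes varied between the repair libraries.

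The animals were 6 month old female rabbits. In every animal the left supraspinatus tendon was cut (tenotomy), left detached for 8 weeks and then sutured back to the humerus. Muscle was taken 1, 2, 4 or 8 weeks later from both shoulders, and the right shoulder, which the study describes as unoperated and the labels as a sham with a skin cut, was the control. Bulk RNA from 1 piece of the posterior lateral region was sequenced, with 4 libraries per shoulder at 1, 4 and 8 weeks and 5 per shoulder at 2 weeks. The left library of rabbit 3 at 8 weeks was left out, as explained below, which leaves 3 repair libraries there. All repaired muscles had also been through tenotomy, and no muscle taken after tenotomy alone is in the series, so effects of the tear and of its repair cannot be told apart.

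Cells enter the cycle when D-type cyclins switch on the kinases CDK4 and CDK6, and cyclin A with CDK2 then carries them through DNA synthesis. The MCM helicase, loaded by the origin recognition complex, opens the double strand, RFC loads the sliding clamp and DNA polymerase delta copies it. Topoisomerase II and condensin shape the chromosomes, kinesins and centromere proteins move them, and the anaphase-promoting complex ends mitosis by marking its targets for destruction. Muscle fibres are post-mitotic, so cycling in a muscle is usually a matter of satellite cells, fibroblasts, endothelial cells and leukocytes. In bulk tissue, fewer cells of a type and less RNA per cell cannot be told apart. Several members carry a cell cycle name but are known for other work: KIF1B, KIF3A, KIF5C and KIF17 transport cargo along microtubules, CCNC, CCNK, CCNL1, CDK12 and CDC40 serve transcription and splicing, CDC42 is a small GTPase of cell shape, CDC37L1 is a chaperone partner, and CDK5RAP1 modifies mitochondrial transfer RNA.

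Total counts on genes lay between 9220035 and 28395188 in the 33 libraries (median 12127768). Libraries of 1 and 8 weeks share 1 series of sample titles and those of 2 and 4 weeks another, so the repair effect was compared between 1 and 8 weeks and between 2 and 4 weeks only. The left library of rabbit 3 stood apart: across genes, its log2 CPM had r = 0.707 with the average of the 3 repair libraries kept at 8 weeks, while each of these reached 0.968 or more. The repair library of rabbit 59 at 2 weeks also stood apart in members and in cell type markers, and its values are given beside the results that rest on it. As a check of the labelled tissue, 6 muscle fibre markers summed to between 9785 and 90620 CPM in the 33 libraries. The lowest sum was that of rabbit 6's repair library at 1 week, beside 29710 to 53990 CPM in the other repair libraries of 1 week. This library was the lowest of its group for 18 of 40 members and the highest for 9, where each held for 30.6% of all genes.

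Few members passed the test at any time point. At 1 week post-repair, 4 of 40 members differed between repair and control at an adjusted p under 0.05 (limma-voom), where 13.7% of all genes did. NEK8 was higher, where 6.81% of all genes were called higher, and CCNK, KIF1B and NEK10 were lower, where 6.88% were called lower. At 2 weeks post-repair, 4 of 40 passed, where 15.9% of all genes did. CCND2 and CCNL1 were higher (7.95% of all genes) and CDC37L1 and NEK7 lower (7.92%). No member passed at 4 weeks, where 0.124% of all genes did, or at 8 weeks, where 0.00773% did. At an unadjusted p under 0.05 there were 12, 14, 6 and 2 members at 1, 2, 4 and 8 weeks, beside 4302, 4622, 2058 and 397 of the 12937 genes (limma-voom). At 4 weeks edgeR called 0 members and DESeq2 2 (CCNG2 and CDKN3), where they called 2.52% and 5.16% of all genes. At 8 weeks both called 0 members, where they called 0.00773% and 0.0387% of all genes.

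The sign of the fitted change was also close to that of the other genes. Of the 40 members, 23, 24, 25 and 26 were fitted higher in repair at 1, 2, 4 and 8 weeks, that is 57.5% to 65.0% of them, beside 53.7%, 54%, 54.1% and 52.3% of all genes. The median log2FC of the members was 0.17, 0.12, 0.07 and 0.06, and that of all genes 0.05, 0.06, 0.05 and 0.01. Repair and control libraries did not overlap for 14, 4, 3 and 2 members in time order, where 29.4%, 7.84%, 9.11% and 7.56% of all genes did not overlap.

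**Figure D1:**
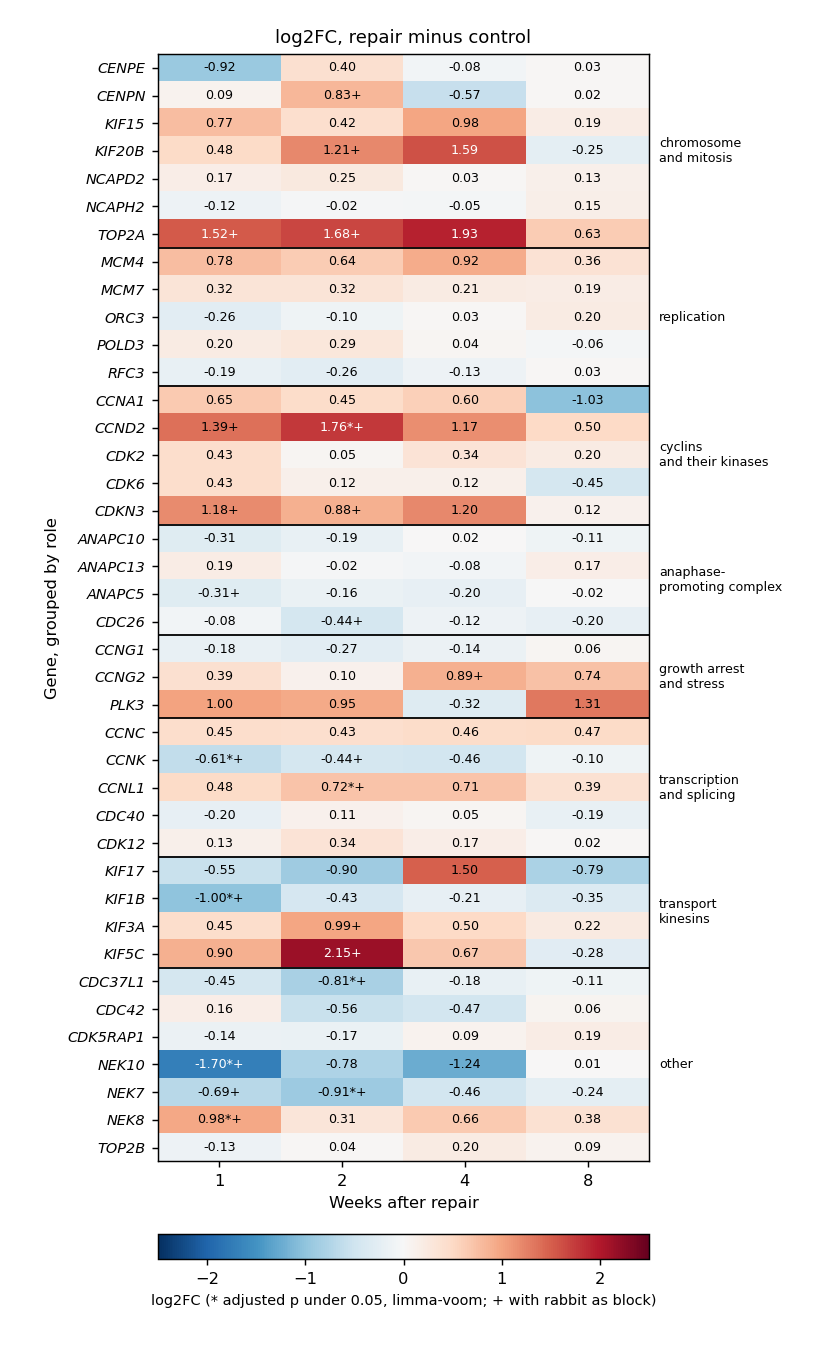
Fitted log2FC (repair minus control, limma-voom, colour and printed value) of the 40 members (rows, grouped by role) at 1, 2, 4 and 8 weeks post-repair (columns). A star marks an adjusted p under 0.05, of which there are 4 at 1 week and 4 at 2 weeks, and a plus sign an adjusted p under 0.05 with the rabbit as a block, of which there are 9, 12, 1 and 0.

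Both shoulders of a rabbit are in the series, and taking the rabbit into account raised the counts. With the rabbit as a fixed block, 9, 12, 1 and 0 members were called at 1, 2, 4 and 8 weeks, where 25.1%, 28.5%, 2.30% and 0.00773% of all genes were called. With an estimated correlation between the shoulders, 7, 9, 1 and 0 members were called, where 22.4%, 25.2%, 1.46% and 0.00773% of all genes were. At 1 week the fixed block added CCND2, CDKN3 and TOP2A as higher and ANAPC5 and NEK7 as lower. At 2 weeks it added CDKN3, CENPN, KIF20B, KIF3A, KIF5C and TOP2A as higher and CCNK and CDC26 as lower. With an estimated correlation, CDKN3 and TOP2A did not pass at 1 week (adjusted p = 0.0501 and 0.113) and CDKN3, KIF5C and TOP2A not at 2 weeks (adjusted p = 0.106, 0.0851 and 0.0899, limma-voom).

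Single libraries moved these counts, and with them the share of all genes called, given in brackets. At 1 week the count of 4 became 1 without rabbit 6's repair or rabbit 5's control library (6.80% and 4.83% of all genes). It became 2 without rabbit 7's repair library (5.28%) or the control of rabbit 6, 7 or 8 (8.76%, 4.58% and 7.26%). It became 10 when rabbit 59's repair library (2 weeks) was left out (28.7%). At 2 weeks the count of 4 became 1 (NEK7) without the repair library of rabbit 59 (2.62%). It became 2 without that of rabbit 62 (5.90%) or without any 1 of the 5 controls (6.90% to 11.1%). Without the repair library of rabbit 61, 60 or 64 it became 7, 9 or 10 (21.3%, 25.7% and 26.7%). It became 7 without the 4 week control of rabbit 66 (16.1%). At 4 weeks 2 members, CCNG2 and CDKN3, were called without the repair library of rabbit 68 (2.17%). With the left library of rabbit 3 kept in the fit, the counts were 1 (NEK10), 0, 0 and 0 (2.25%, 3.16%, 0.0383% and 0.00767%).

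The 7 genes of chromosome structure and mitosis had no call at any time point by limma-voom with the settings used here. With other settings of limma-voom, TOP2A was called at 1 week with sample quality weights and CENPN at 2 weeks with a minimum of 1 CPM in 5 libraries. Leaving out single libraries also gave calls, all higher. TOP2A was called at 1 week without rabbit 59's repair library and at 2 weeks without rabbit 64's. KIF20B was called at 2 weeks without the repair library of rabbit 60, 61 or 64 or the control of rabbit 66 or 67. CENPN was called at 2 weeks without the repair library of rabbit 1, 6, 61 or 64 or the control of rabbit 66. At 2 weeks CENPN, KIF20B and TOP2A were called higher by edgeR, by DESeq2 and with the rabbit as a block, and CENPN and KIF20B also with an estimated correlation. TOP2A, the topoisomerase that untangles chromosomes in dividing cells, had the largest fitted log2FC among them at 1, 2 and 4 weeks without passing the test. At 1 week TOP2A was at 1.45, 0.983, 5.51 and 1.83 CPM in the repair libraries of rabbits 5, 6, 7 and 8 and at 0.855, 0.554, 0.748 and 0.571 CPM in their controls. The groups did not overlap, and the library of rabbit 7 was well above the rest. At 2 weeks TOP2A was at 19, 0.909, 1.85, 4.52 and 0.663 CPM in the repair libraries of rabbits 59, 60, 61, 62 and 64, and at 0.545 to 1.24 CPM in the controls. Here the groups overlapped, and rabbits 59, 62 and 61 lay above all controls. At 4 weeks TOP2A was at 3.49, 1.02, 1.38 and 1.47 CPM in the repair libraries of rabbits 63, 66, 67 and 68 and at 0.207 to 0.673 CPM in the controls, again with no overlap. The log2FC of TOP2A was 1.52 (95% confidence interval -0.06 to 3.11, adjusted p = 0.166) at 1 week, 1.68 (0.06 to 3.29, adjusted p = 0.124) at 2 weeks, 1.93 (-0.31 to 4.17, adjusted p = 0.383) at 4 weeks and 0.63 (-1.09 to 2.36, adjusted p = 0.999) at 8 weeks by limma-voom. With the rabbit as a block, TOP2A passed at 1 week (adjusted p = 0.0287) and 2 weeks (adjusted p = 0.0268), but with an estimated correlation it did not (0.113 and 0.0899). Leaving out 1 repair library moved its log2FC to 0.96 at 1 week (rabbit 7), 0.83 at 2 weeks (rabbit 59) and 0.32 at 8 weeks (rabbit 1).

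KIF20B, a kinesin of cytokinesis, was at 6.03, 2.22, 1.94, 2.67 and 1.99 CPM in the repair libraries of rabbits 59, 60, 61, 62 and 64 at 2 weeks and at 0.935, 1.66, 1.36, 1.44 and 0.762 CPM in their controls. All repair libraries lay above all controls, with a log2FC of 1.21 (SE 0.45, adjusted p = 0.0607, limma-voom). Without rabbit 59 its log2FC was 0.86 (adjusted p = 0.218). CENPN, which helps to build the centromere, was higher in repair in 5 of 5 rabbits at 2 weeks, with 2.94 ± 0.925 CPM in repair and 1.71 ± 0.630 CPM in control (SD, n = 5), a log2FC of 0.83 and an adjusted p of 0.0507 by limma-voom. At 4 weeks CENPN was lower in repair in 4 of 4 rabbits, with 1.94 ± 0.562 and 2.88 ± 0.820 CPM (SD, n = 4) and a log2FC of -0.57. The difference of that effect between 2 and 4 weeks was 1.40 (SE 0.43, unadjusted p = 0.00293), and its adjusted p of 1.00 over all genes did not pass (limma-voom). KIF15, a spindle kinesin, and CENPE, the kinesin of the kinetochore, were at 5.78 and 6.73 CPM in the repair library of rabbit 59, beside at most 1.57 and 2.40 CPM in the other repair libraries of 2 weeks. Without that library their log2FC at 2 weeks moved from 0.42 to -0.04 and from 0.40 to -0.01. The condensin subunits NCAPD2 and NCAPH2 lay within 0.25 of 0 on the log2 scale at every time point.

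**Figure D2:**
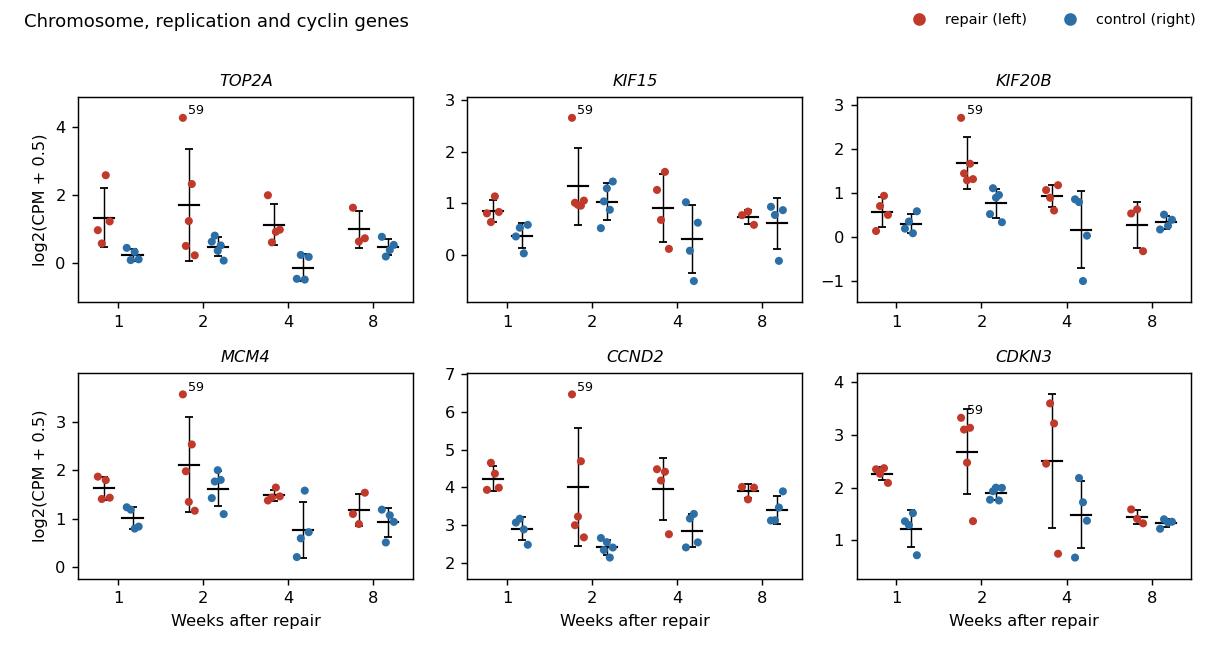
Levels as log2(CPM + 0.5) of TOP2A, KIF15, KIF20B, MCM4, CCND2 and CDKN3 in every library (points, repair red and control blue) at 1, 2, 4 and 8 weeks post-repair, with the mean (line) and SD (bar) of each group. The repair library of rabbit 59 (marked 59) is the highest of its group in all 6 panels, and at 87.7 CPM for CCND2 and 19 CPM for TOP2A it is above every other library.

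The 5 replication genes had no call at any time point by limma-voom with the settings used here. MCM4, a subunit of the replicative helicase, was above the controls in every repair library at 1 week, with 3.14, 2.15, 2.97 and 2.2 CPM in rabbits 5, 6, 7 and 8 and 1.85, 1.77, 1.23 and 1.29 CPM in their controls. The log2FC of MCM4 was 0.78 (SE 0.40, adjusted p = 0.167, limma-voom), and it was called with sample quality weights, within its title series alone, within the time point alone and when rabbit 59's repair library was left out. At 2 weeks it was at 11.3 CPM in the repair library of rabbit 59 and between 1.74 and 5.27 CPM in the others, beside 1.63 to 3.50 CPM in the controls. MCM7, another subunit of that helicase, was fitted higher by 0.32, 0.32, 0.21 and 0.19 on the log2 scale at 1, 2, 4 and 8 weeks, with adjusted p of 0.200, 0.166, 0.617 and 0.999 (limma-voom). Single libraries carried part of this, and the log2FC of MCM7 was 0.14 at 1 week without rabbit 6's repair library, 0.11 at 4 weeks without the control of rabbit 68 and 0.00 at 8 weeks without rabbit 4's repair library. ORC3 of the origin recognition complex, RFC3 of the clamp loader and POLD3 of DNA polymerase delta had log2FC between -0.26 and 0.29 at all time points. POLD3 was at 15.7 CPM in the repair library of rabbit 59, beside 7.87 to 9.44 CPM in the other repair libraries of 2 weeks.

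CCNA1, CCND2, CDK2, CDK6 and CDKN3 were grouped as cyclins that drive the cycle and their kinases, although CDKN3 is a phosphatase that acts against CDK2. Of these genes, 5 of 5 were fitted higher in repair at 1, 2 and 4 weeks and 3 of 5 at 8 weeks by limma-voom. The signs of CCNA1, CDK2 and CDK6 turned when single libraries were left out. At 2 weeks CCNA1 had a lower mean in repair (0.797 CPM) than in control (1.33 CPM), and its log2FC of 0.45 was 0.01 with the rabbit as a block and -0.30 without the control of rabbit 62. Without rabbit 59's repair library the log2FC of CDK2 and CDK6 was -0.27 and -0.23, and without rabbit 62's that of CDK6 was -0.24. At 4 weeks CCNA1 and CDK6 had -0.26 and -0.17 with the block and -0.37 and -0.65 without the control of rabbit 67. CCND2, the D-type cyclin that activates CDK4 and CDK6, was the only call among them, at 2 weeks. Its 2 week levels were 87.7, 7.48, 8.85, 25.3 and 5.88 CPM in the repair libraries of rabbits 59, 60, 61, 62 and 64 and 5.80, 4.56, 5.34, 3.90 and 4.79 CPM in their controls. Every repair library was above every control, but the lowest (5.88 CPM, rabbit 64) only just, and rabbit 59 was over 3 times the next. The means were 27.0 ± 34.8 and 4.88 ± 0.730 CPM (SD, n = 5), the log2FC 1.76 (SE 0.60) and the adjusted p 0.0447 by limma-voom. Without rabbit 59 the log2FC of CCND2 was 1.09 and the adjusted p 0.126, and the call was also lost without the repair library of rabbit 62 or any 1 control. Within the libraries of 2 and 4 weeks alone the adjusted p was 0.138.

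At 1 week CCND2 was at 14.8, 24.6, 20.1 and 15.4 CPM in the repair libraries of rabbits 5, 6, 7 and 8 and at 7.88, 8.48, 6.88 and 5.07 CPM in their controls. These groups were evenly separated, with a log2FC of 1.39 (SE 0.51) that missed the threshold (adjusted p = 0.0658, limma-voom) and passed with the rabbit as a block (adjusted p = 0.0166) or an estimated correlation (adjusted p = 0.0352). Leaving out any of these 8 libraries kept the log2FC between 1.24 and 1.49. At 4 weeks 3 of 4 repair libraries were at 17.6 to 21.8 CPM and that of rabbit 68 at 6.26 CPM, beside 4.81 to 9.32 CPM in the controls. At 8 weeks the repair libraries were at 12.3 to 15.6 CPM and the controls at 8.19 to 14.4 CPM, with a log2FC of 0.50 (adjusted p = 0.999, limma-voom).

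CDKN3, a phosphatase that removes the activating phosphate from CDK2 and is made mainly in dividing cells, was at 4.59, 4.30, 4.66 and 3.75 CPM in the repair libraries of rabbits 5, 6, 7 and 8 and at 2.07, 1.94, 2.36 and 1.14 CPM in their controls at 1 week. The groups stood apart with little spread, with a log2FC of 1.18 (SE 0.48) and an adjusted p of 0.0864 by limma-voom, 0.0224 with the rabbit as a block and 0.0501 with an estimated correlation. At 2 weeks CDKN3 was at 9.52, 8.08, 5.06, 8.28 and 2.07 CPM in the repair libraries of rabbits 59, 60, 61, 62 and 64, beside 2.88 to 3.50 CPM in the controls. All but rabbit 64 were above the controls, and without rabbit 59 the repair libraries still averaged 5.87 ± 2.93 CPM (SD, n = 4). The log2FC was 0.88 (adjusted p = 0.154 by limma-voom, 0.0346 with the block and 0.106 with an estimated correlation), and 0.68 without rabbit 59. At 4 weeks the levels were 4.98, 11.6, 8.8 and 1.17 CPM, with rabbit 68 lowest, beside 1.09 to 4.04 CPM in the controls, and at 8 weeks both shoulders were between 1.83 and 2.5 CPM. CDK2 and CDK6 had log2FC between -0.45 and 0.43, and CCNA1, a cyclin A known from the germ line, was under 2.02 CPM in all but 2 libraries of the fit.

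Of the 4 subunits of the anaphase-promoting complex, ANAPC5, ANAPC10, ANAPC13 and CDC26, no more than 1 was fitted higher at any time point. None was called by limma-voom with the settings used here. ANAPC5 was at 103, 99.5, 92.7 and 106 CPM in the repair libraries of rabbits 5, 6, 7 and 8 at 1 week and at 127, 118, 124 and 129 CPM in their controls. The shoulders were fully apart but close in size, with a log2FC of -0.31 (SE 0.13, adjusted p = 0.0912, limma-voom) that passed with the rabbit as a block (adjusted p = 0.0462), with an estimated correlation (adjusted p = 0.0468) and by DESeq2. ANAPC5 was also called lower with sample quality weights, within its title series alone, within the time point alone and when rabbit 59's repair library was left out. CDC26 was lower in repair in 5 of 5 rabbits at 2 weeks (log2FC -0.44, adjusted p = 0.0927, limma-voom, 0.0408 with the block and 0.0496 with the correlation).

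Among 3 genes of growth arrest and stress, CCNG2, an unusual cyclin that is high in cells that leave the cycle, had its largest difference late. At 4 weeks it was at 77.7, 82.2, 87.6 and 58.3 CPM in the repair libraries of rabbits 63, 66, 67 and 68 and at 39.4, 44.9, 47.2 and 32.7 CPM in their controls. All repair libraries were above all controls, with 76.4 ± 12.8 and 41 ± 6.47 CPM (SD, n = 4) and a log2FC of 0.89 (SE 0.25). The adjusted p was 0.104 by limma-voom, 0.0140 with the rabbit as a block and 0.0368 with an estimated correlation. At 8 weeks CCNG2 was at 39, 86.6 and 61.1 CPM in the repair libraries of rabbits 1, 2 and 4 and at 31.8 to 40.5 CPM in the controls, a log2FC of 0.74 (unadjusted p = 0.0113, adjusted p = 0.999, limma-voom). Leaving out rabbit 2's repair library moved this to 0.46. At 1 and 2 weeks its log2FC was 0.39 and 0.10, and these were 0.11 without rabbit 5's repair library and -0.04 without the control of rabbit 61. The difference between 2 and 4 weeks was -0.79 (SE 0.34, unadjusted p = 0.0254, adjusted p = 1.00, limma-voom), so the larger value at 4 weeks did not pass as a difference in time. CCNG1, the related cyclin that responds to DNA damage, had log2FC between -0.27 and 0.06. PLK3, a stress kinase, was at 1.25 to 1.73 CPM in the repair libraries of 8 weeks and at 0.213 to 0.783 CPM in the controls, with no overlap and a log2FC of 1.31 (SE 0.67, adjusted p = 0.999, limma-voom).

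The other 7 of the 8 calls lay in the kinesins of transport, the genes of transcription and splicing, and members of no single role. KIF1B, a kinesin that carries mitochondria and vesicles, is abundant in this muscle and was at 255, 153, 217 and 233 CPM in the repair libraries of rabbits 5, 6, 7 and 8 at 1 week and at 507, 396, 432 and 371 CPM in their controls. Every repair library was below every control, 215 ± 43.6 against 427 ± 58.9 CPM (SD, n = 4), with a log2FC of -1.0 (SE 0.26, adjusted p = 0.0149, limma-voom). The call was lost when rabbit 6's repair or rabbit 5's control library was left out (adjusted p up to 0.0567). At 2, 4 and 8 weeks its log2FC was -0.43, -0.21 and -0.35, with adjusted p of 0.123, 0.663 and 0.999 (limma-voom). Leaving out single libraries moved these to -0.24 (repair, rabbit 59) at 2 weeks, between -0.45 and -0.03 (controls of rabbits 67 and 63) at 4 weeks, and -0.19 (repair, rabbit 4) at 8 weeks. KIF3A and KIF5C were at 42.8 and 21.7 CPM in the 2 week repair library of rabbit 59, beside at most 16.6 and 2.53 CPM in the other repair libraries. Without it their log2FC moved from 0.99 to 0.50 and from 2.15 to 1.03. KIF17 was at most 2.69 CPM in every library of the fit and had no call.

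The NEK kinases moved in both directions. NEK7, which serves spindle assembly and the NLRP3 inflammasome, was at 143, 285, 292, 173 and 251 CPM in the repair libraries of rabbits 59, 60, 61, 62 and 64 at 2 weeks and at 404, 445, 394, 395 and 467 CPM in their controls. All repair libraries were below all controls, with 229 ± 67.7 against 421 ± 33 CPM (SD, n = 5), a log2FC of -0.91 (SE 0.20) and an adjusted p of 0.00949 by limma-voom. NEK7 passed without any 1 of these 10 libraries (adjusted p 0.00426 to 0.0367) and within the libraries of 2 and 4 weeks (adjusted p = 0.0470), but not within those of 2 weeks alone (0.127) or with all 34 libraries (0.153). At 1 week it was at 234, 125, 224 and 224 CPM in repair and at 306, 300, 341 and 331 CPM in control for rabbits 5, 6, 7 and 8, a log2FC of -0.69 that missed the threshold (adjusted p = 0.0543, limma-voom) and passed with the block (adjusted p = 0.0248).

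NEK10, a little studied kinase of the same family, was at 0.449, 0.364, 0.671 and 0.641 CPM in the repair libraries of rabbits 5, 6, 7 and 8 at 1 week and at 2.07, 1.39, 2.13 and 1.29 CPM in their controls. The groups did not overlap, but these are low levels. Its log2FC of -1.70 (SE 0.41, adjusted p = 0.00952, limma-voom) was the only called member difference at 1 week past the study's added limit of a log2FC of 1, and it passed in all 12 alternative settings and without any 1 of the 8 libraries. At 8 weeks the log2FC of NEK10 was 0.01, and the difference between 1 and 8 weeks was -1.71 (SE 0.60, unadjusted p = 0.00752, adjusted p = 0.827, limma-voom). NEK8, a kinase of the primary cilium, was at 2.2, 1.93, 2.76 and 2.34 CPM in repair and at 1.5, 0.832, 1.2 and 1.21 CPM in control at 1 week. Its log2FC of 0.98 (SE 0.33) passed narrowly (adjusted p = 0.0481, limma-voom), and the call was lost without any 1 of the 8 libraries (adjusted p 0.0558 to 0.125) and by edgeR (0.0923) and DESeq2 (0.0714). The call of NEK8 was also lost with no filter, with all 34 libraries, and without any 1 control of 2 or 8 weeks, among other libraries.

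CDC37L1, a partner of the chaperone HSP90, was at 15.4, 32.4, 46.5, 31.8 and 24.3 CPM in the repair libraries of rabbits 59, 60, 61, 62 and 64 at 2 weeks and at 61.5, 49.6, 48.3, 52.1 and 37 CPM in their controls. It was lower in repair in 5 of 5 rabbits, although the groups overlapped, with 30.1 ± 11.5 against 49.7 ± 8.77 CPM (SD, n = 5), a log2FC of -0.81 (SE 0.19) and an adjusted p of 0.0121 by limma-voom. Without rabbit 59 the log2FC was -0.58 and the adjusted p 0.0528. CCNK, the cyclin partner of CDK12 in transcription, was at 53.3, 52.2, 45.5 and 64.5 CPM in the repair libraries of rabbits 5, 6, 7 and 8 at 1 week and at 81.5, 78.1, 90.1 and 78.2 CPM in their controls. The groups were fully apart (log2FC -0.61, SE 0.19, adjusted p = 0.0348, limma-voom), and the call was lost without any 1 of 7 of the 8 libraries, the exception being the repair library of rabbit 8 (adjusted p up to 0.107). CCNL1, a cyclin of splicing, was at 18.8, 15.6, 15.4, 17.7 and 36.7 CPM in the repair libraries of rabbits 59, 60, 61, 62 and 64 at 2 weeks and at 12, 10.2, 10.5, 13.4 and 14.6 CPM in their controls. Its groups did not overlap and rabbit 64 was highest (log2FC 0.72, SE 0.23, adjusted p = 0.0381, limma-voom), and the call was lost without the repair library of rabbit 59, 62 or 64 or any 1 control (adjusted p up to 0.0881). CCNC, the cyclin of the Mediator complex, was fitted higher by 0.45, 0.43, 0.46 and 0.47 on the log2 scale at 1, 2, 4 and 8 weeks with no call. CDK12, CDC40, CDC42, CDK5RAP1 and TOP2B, a topoisomerase made in non-dividing cells as well, had log2FC between -0.56 and 0.34.

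**Figure D3:**
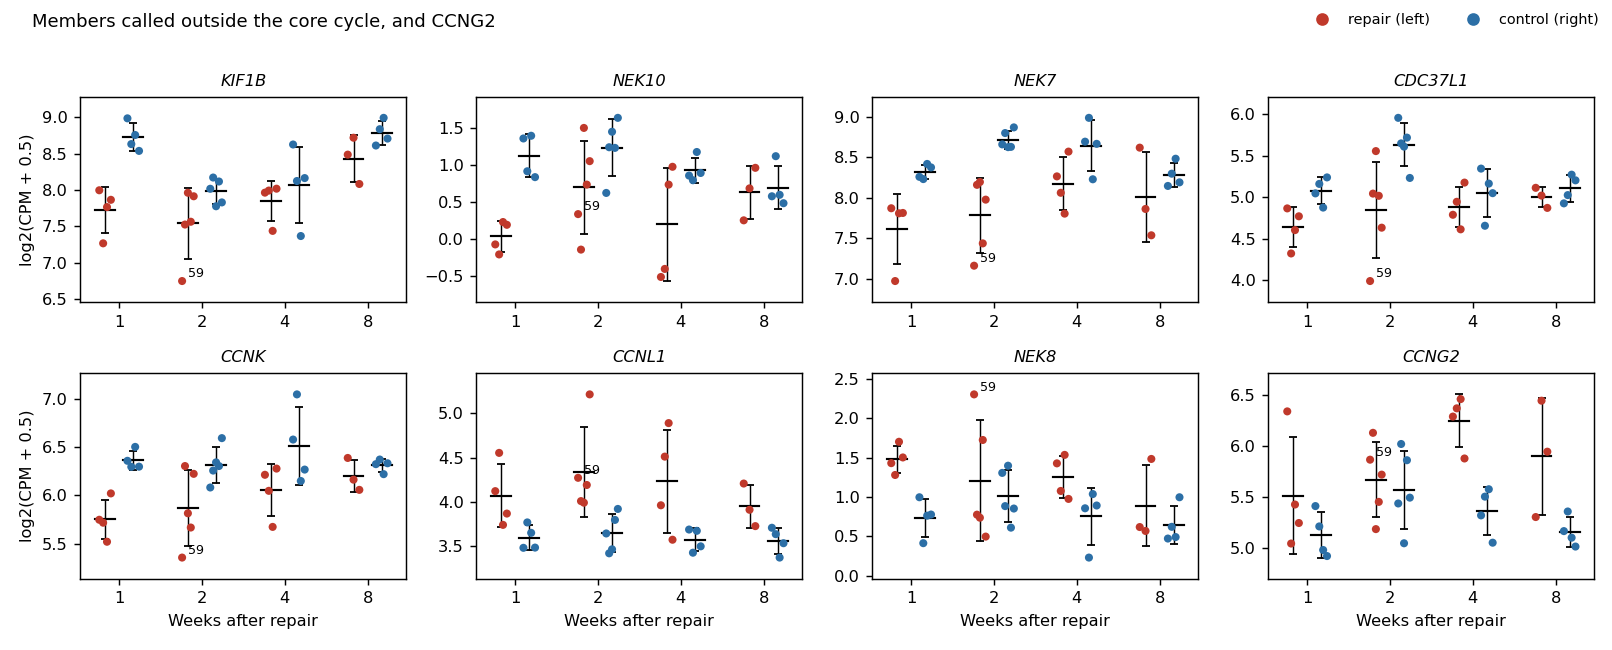
Levels as log2(CPM + 0.5) of the 7 called members other than CCND2, and of CCNG2, in every library (points, repair red and control blue) at 1, 2, 4 and 8 weeks post-repair, with the mean (line) and SD (bar) of each group. KIF1B, NEK10 and CCNK at 1 week and NEK7 at 2 weeks show repair libraries wholly below the controls, and CCNG2 at 4 weeks wholly above them.

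The repair library of rabbit 59 was the highest of the 5 repair libraries of 2 weeks for 20 of 40 members, where it was the highest for 39.8% of all genes. It was also the highest of the 5 in the summed markers of fibroblasts, leukocytes, endothelium and mural cells, but not in those of adipocytes (569 CPM, beside 708 in rabbit 62) or myogenic cells (453 CPM, beside 524 in rabbit 64). The summed level of 15 fibroblast markers, among them PDGFRA, COL1A1 and COL3A1, was 70850 CPM in it, beside 899 to 19030 CPM in the other repair libraries of 2 weeks and 1090 to 1866 CPM in the controls. The sum of 9 macrophage and other leukocyte markers was 500.0 CPM, beside 8.68 to 130 CPM and 10.2 to 19 CPM, and that of 6 endothelial markers 769 CPM, beside 164 to 399 CPM and 195 to 223 CPM. Muscle fibre markers summed to 11690 CPM in it, the lowest of the 5, beside 19270 to 55300 CPM. The next highest fibroblast sums were 22130 CPM in the repair library of rabbit 7 at 1 week and 19030 CPM in that of rabbit 62 at 2 weeks, which also followed rabbit 59 in TOP2A. All 15 fibroblast and all 9 leukocyte markers were fitted higher in repair at 1, 2 and 4 weeks. Of these, 1, 6 and 0 fibroblast markers and no leukocyte marker were called by limma-voom (13.7%, 15.9% and 0.124% of all genes). With the rabbit as a block the counts were 8, 10 and 1 fibroblast and 2, 6 and 0 leukocyte markers (25.1%, 28.5% and 2.30% of all genes). With an estimated correlation they were 7, 10 and 0 fibroblast and 0 leukocyte markers (22.4%, 25.2% and 1.46% of all genes). Of the other lists, both adipocyte markers (ADIPOQ and LIPE) were called higher at 1 week and ADIPOQ at 2 weeks, as were the endothelial markers ERG and VWF at 2 weeks and MYH8, the perinatal myosin, at 1 week. With the block LIPE (adjusted p = 0.0395) and the endothelial marker TEK (0.0420) were also called higher at 2 weeks, and the myogenic marker HEYL lower (0.0296). None of these passed with the correlation (0.102, 0.0654 and 0.102), where the endothelial marker CDH5 did (0.0466, limma-voom). Muscle fibre markers were fitted lower for 5 of 6 at 1 week and 6 of 6 at 2 weeks, with MYOM2 called at 1 week and DES and TCAP at 2 weeks (limma-voom). TNNT3 was also called lower at 1 week with the block (adjusted p = 0.0244), but not with the correlation (0.0564, limma-voom). By limma-voom without a block no mural marker was called at 1, 2 or 4 weeks, and at 4 weeks no marker of any of these lists was. With the block 2 and 1 mural markers were called higher at 1 and 2 weeks, and with the correlation 1 and 2. At 4 weeks ADIPOQ, LIPE and MYH8 were called higher with the block (adjusted p up to 0.0182) and with the correlation (up to 0.0301). HEYL was called lower at 4 weeks with the block (adjusted p = 0.0209) but not with the correlation (0.0687, limma-voom). The part of these cell types in the members' differences was not tested.

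**Figure D4:**
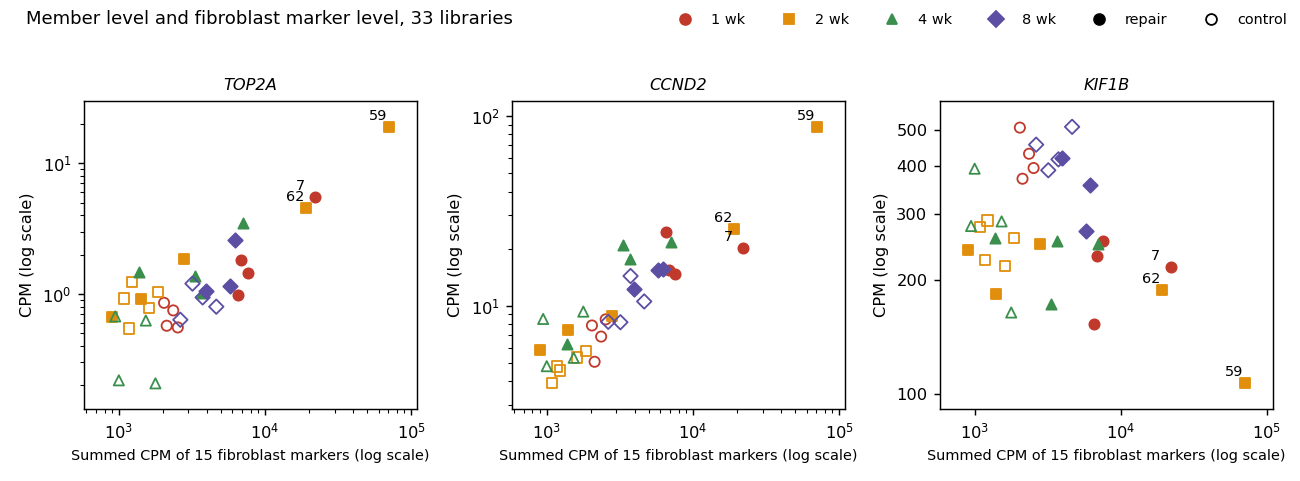
CPM of TOP2A, CCND2 and KIF1B (vertical, log scale) against the summed CPM of 15 fibroblast markers (horizontal, log scale) in the 33 libraries, with filled symbols for repair, open symbols for control and shape and colour for the week. The repair libraries of rabbits 59, 62 and 7 have the 3 highest marker sums (70850, 19030 and 22130 CPM) and the 3 highest TOP2A levels, and rabbit 59 has the lowest KIF1B level.

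Another 37 genes of the cell cycle and its checkpoints that have a symbol but fall outside the families above were also measured. At 1 week 2 of them were called higher and 4 lower (16.2%, beside 13.7% of all genes), at 2 weeks 1 higher and 6 lower (18.9%, beside 15.9%), and at 4 and 8 weeks 0 (3 and 2 at an unadjusted p under 0.05, limma-voom). With the rabbit as a block, 4 were called higher and 6 lower at 1 week, 5 and 5 at 2 weeks and 1 higher at 4 weeks (25.1%, 28.5% and 2.30% of all genes). With an estimated correlation the counts were 3 and 7, 5 and 6, and 1 higher (22.4%, 25.2% and 1.46% of all genes). GADD45A, a stress gene that halts the cycle and is also known from denervated muscle, rose from 17.4 ± 5.74 to 72.1 ± 14.9 CPM at 1 week (SD, n = 4), a log2FC of 2.08 with an adjusted p of 0.000479 by limma-voom. TOPBP1, a scaffold of the replication checkpoint, fell from 110 ± 8.05 to 62.8 ± 6.87 CPM at 1 week (log2FC -0.81, adjusted p = 0.00309, limma-voom, n = 4). RPA3, a subunit of the protein that coats single-stranded DNA, was lower at both times, with a log2FC of -0.73 (adjusted p = 0.00452) at 1 week and -0.98 (adjusted p = 0.00195) at 2 weeks by limma-voom. ATR, the kinase of that checkpoint, was higher at 2 weeks (log2FC 0.82, adjusted p = 0.0197, limma-voom). At 4 weeks ATR had a log2FC of 1.00, with an adjusted p of 0.110 by limma-voom, 0.0482 with the block and 0.0495 with the correlation.

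No member's repair effect differed between time points after adjustment. Between 1 and 8 weeks 0 of 40 members were called, where 0% of all genes were, and 1 (NEK10) had an unadjusted p under 0.05, beside 683 of all 12937 genes. Between 2 and 4 weeks the counts were 0 and 3 (CCNG2, CDC37L1 and CENPN), where 0% of all genes were called and 359 had an unadjusted p under 0.05 (limma-voom), and edgeR and DESeq2 called 0 members in both. For members past the threshold at 1 or 2 weeks and not later, a change over time is therefore not shown.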

How the data were processed

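Total RNA of 34 libraries was made into stranded mRNA libraries and sequenced as 75 base single reads. The deposited values are expected counts per gene, not scaled, which the authors made by aligning reads to the rabbit genome (OryCun2.0) with STAR and counting with RSEM. The 33 libraries left after removing the left library of rabbit 3 were used, with genes over 1 CPM in any library. TMM scaling was applied (edgeR 4.0.16), and limma-voom (limma 3.58.1, under R 4.3.3) modelled 8 groups of shoulder and time. Two-sided p-values were adjusted by Benjamini-Hochberg over 12937 genes, and calls were made at an adjusted p under 0.05. CPM in the text are TMM-scaled and not per gene length, so levels are compared between libraries and not between genes. Expected counts were rounded for edgeR quasi-likelihood and DESeq2 1.42.0. The fits were tested on simulated data. Another 12 settings and leaving out each of 33 libraries in turn were the alternatives.

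Sample titles give both shoulders of a rabbit the same number, so the numbers pair libraries of 1 animal. Over 16 rabbits, residuals of left and right library correlated at 0.0252 to 0.434 (median 0.257), and 15 left libraries resembled their own right library most. The estimated correlation was 0.174.

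The members, their roles and the gene lists were chosen with earlier results of these data known. Symbols are those of human orthologs and were taken from 2 tables of the study (3310 genes, 347 in both, all 347 alike). One of these tables also holds the authors' own fold changes and p-values for repair against control, which were not used. All columns of the count table were mapped (0 unused). Members called at any time point were described in full, with others by range and count, and members called only with the rabbit as a block were added by the same measures after their values were seen, as were CCNG2, MCM4, KIF15, CENPE and PLK3. The planned promoter search was not run, and no rabbit sequence was used here. Figures were drawn with matplotlib 3.10.9, those of single genes by week on log2(CPM + 0.5).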

Additional observations from a re-analysis of the deposited data

Results flagged for a closer look

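Each member's values in each group of 4 or 5 libraries were searched for 1 library far from the others, with Dixon's criterion at 95%, which weighs how far it stands from its neighbour. Of 280 groups of values, 19 were marked, where chance alone marks about 1 in 20. Of the 19, 10 were the repair library of rabbit 59 at 2 weeks, always as the highest: ANAPC13 at 51.1 CPM, CCND2 at 87.7, CENPE at 6.73, KIF15 at 5.78, KIF20B at 6.03, KIF3A at 42.8, KIF5C at 21.7, NCAPD2 at 14.4, POLD3 at 15.7 and TOP2A at 19 CPM. The other repair libraries of 2 weeks reached at most 33.3, 25.3, 2.40, 1.57, 2.67, 16.6, 2.53, 6.57, 9.44 and 4.52 CPM for these genes.

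The remaining 9 were spread over other libraries. At 2 weeks CCNL1 was highest at 36.7 CPM in the repair library of rabbit 64, CDC42 highest at 7.06 CPM in that of rabbit 62 and CCNA1 highest at 5.0 CPM in the control of rabbit 61. At 1 week NEK7 was lowest at 125 CPM in the repair library of rabbit 6, and CDK5RAP1 and KIF3A were lowest at 12.6 and 8.15 CPM in the control of rabbit 7. KIF1B was lowest at 173 CPM in the repair library of rabbit 67 at 4 weeks. At 8 weeks NEK10 was highest at 1.67 CPM in the control of rabbit 2, and PLK3 lowest at 0.213 CPM in that of rabbit 3.

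In the left library of rabbit 3, which was kept out of the comparisons of the report except in the setting with all 34 libraries, CCNA1 was at 210 CPM and NCAPH2 at 694 CPM, beside at most 1.18 and 42.8 CPM in the controls of 8 weeks, with CPM scaled over all 34 libraries. In that library 14 members were above and 22 below all controls of 8 weeks. The share of all genes that lay so was not counted. The library stood apart across all genes (r = 0.707 with the average of the repair libraries kept at 8 weeks), so these counts are no result about the members.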

How the results depend on the processing

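Member differences called by limma-voom or with a replicate block kept their sign in every setting run. Uncalled ones did not all do so. Without rabbit 59 the 2 week log2FC of CDK2, CDK6, NCAPD2, NEK8, KIF15, CENPE and TOP2B moved from above to below 0 (-0.27 to -0.0008). Beside 4 members called at 1 week, there were 1 with all 34 libraries, 7 by DESeq2, 9 with the rabbit as a fixed effect (replicate block), 7 with a correlation between shoulders, 10 with sample quality weights, 10 within the title series and 11 within the time point, and 1 to 10 when each library was left out. The shares of all genes called were 2.25%, 17.9%, 25.1%, 22.4%, 32.3%, 31.2% and 24.4% in that order, and 4.58% to 28.7% without single libraries. Beside 4 at 2 weeks, the counts were 0, 11, 12, 9, 1, 1 and 0 in that order, 10 by edgeR, and 1 to 10 without single libraries. The shares of all genes were 3.16%, 31.2%, 28.5%, 25.2%, 6.31%, 0.969% and 0.0396%, 28.7% by edgeR, and 2.62% to 26.7% without single libraries. Beside 0 at 4 weeks, there were 2 by DESeq2, 1 with the replicate block, 1 with the correlation, 6 with quality weights and 0 to 2 without single libraries. The shares of all genes were 5.16%, 2.30%, 1.46% and 7.98% in that order, and 0.0155% to 2.76% without single libraries. Beside 0 at 8 weeks, quality weights gave 1 (CCNG2), where 0.649% of all genes were called. Size factors of DESeq2, filterByExpr, no filter and a minimum in 5 libraries kept each count within 1.5 times. The cause of these moves was not tested. Differences between time points had no member called in any setting. At 0.5 to 2 CPM, as for TOP2A in control muscle or NEK10, a library holds few reads of a gene, and its fitted change is less precise than at higher levels.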
